A study of Mus musculus with 2 samples.

Results

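The Mir191 and Mir425 cluster is a pair of microRNA (miRNA) hairpins on mouse chromosome 9, and its 2 members were found by gene name among the 1973 gene rows of each count table. Mir425 has a row of its own, and its counts were taken on the strand it is annotated on. Mir191 has none, and its reads were counted on the opposite strand of the row Gm24083, an annotated hairpin that covers the same bases as Mir191 on the other strand. Counts were divided by the annotated-strand total of each library and scaled to 1000000 (CPM). The labels give a size range below 30, the range of mature miRNAs, so reads were taken as mature miRNAs and no scaling by gene length was applied. Small RNA of whole liver was sequenced from mouse embryos of strain B6NCrl at embryonic day 16.5. The samples form 1 group of 2 biological replicates, each a pool of livers of male and female embryos described as healthy, with no treatment or genetic change stated. For replicate 2, livers of 41 embryos were pooled, whereas the labels give no such number for replicate 1. With 1 group, no condition could be compared, so the data were read for the level of each member, the balance between both and the difference between the 2 pools.

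MiRNAs are cut from hairpin precursors, and the strand that is kept pairs with messenger RNAs mainly through its seed, the stretch of bases from position 2 to position 8 at its 5′ end, to repress them. miR-191 and miR-425 are conserved in mammals and present in many tissues, and in human cells both are cut from 1 primary transcript. Both are often used to normalize miRNA measurements. The liver of the embryo is a site of red cell formation, and in erythroblasts grown from mouse fetal liver, forced miR-191 expression was reported to block enucleation, with Riok3 and Mxi1 as targets. In human cells miR-425 was reported to repress NPPA, which encodes a natriuretic peptide.

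Both hairpins are shown because they carry the counts described here. In the hairpins the capitals mark the mature arms, and all sequences are from RefSeq on GRCm38.p6, the assembly also called mm10. Both members were matched in the RefSeq table, where the sequence of Mir191 lies at chr9:108568319-108568392 and that of Mir425 at chr9:108568777-108568861, both on the plus strand.
Mir191: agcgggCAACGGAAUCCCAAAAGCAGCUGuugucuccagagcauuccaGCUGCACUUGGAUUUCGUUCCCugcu
Mir425: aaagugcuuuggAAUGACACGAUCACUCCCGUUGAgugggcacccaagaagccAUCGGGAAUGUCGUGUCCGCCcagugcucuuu

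The 4 mature arms are given with the seed in capitals, since the seed decides which miRNAs belong to 1 family.
miR-191-5p: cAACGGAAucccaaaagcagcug
miR-191-3p: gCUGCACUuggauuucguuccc
miR-425-5p: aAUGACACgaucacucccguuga
miR-425-3p: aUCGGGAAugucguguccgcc
miR-489-3p: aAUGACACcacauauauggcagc
No seed was shared among the 4 arms. Among the 1738 mature entries of the RefSeq table, 1 other miRNA shared a seed with an arm of the cluster, miR-489-3p with miR-425-5p, and it is printed for that reason. The sequences of miR-489-3p and miR-425-5p differ after the seed, so their reads can be told apart. Mir489 had 0 counts in both libraries, which allows up to 0.588 CPM in replicate 2 and 0.506 CPM in replicate 1, where a count of 0 is taken to allow 3 counts. Mir425 had at least 4323-fold more counts than Mir489 in replicate 2 and at least 5398-fold more in replicate 1.

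The hairpin of Mir191 is 74 bases long and that of Mir425 85 bases, with 384 bases between them. Their GC contents were 54.1% for both. The listed 5′ and 3′ mature arms were 23 and 22 bases long in Mir191 and 23 and 21 bases long in Mir425. Each of the 4 mature sequences occurred once in the RefSeq table. None of the 57 words of 18 bases in the Mir191 hairpin, and none of the 68 in Mir425, occurred in another row of the count tables on either strand. Reads that map to several places are not in the gene counts, and neither member shared a word with a listed row.

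In GENCODE M21 both hairpins lie within 4833445I07Rik (ENSMUSG00000103103.1; chromosome 9, 108567533 to 108569174, plus strand), a long intergenic noncoding RNA gene. Its longer transcript is a single exon that holds both hairpins. In the shorter transcript, Mir191 lies in the intron between exons 1 and 2, and Mir425 begins 2 bases past the transcript's end. The protein-coding gene Dalrd3, whose human counterpart is usually named as the host of both miRNAs, is annotated from 108569886 to 108572774 on the same strand, so that 1024 bases separate it from Mir425. Counts of the host transcripts were not analysed here. The nearest hairpins with rows on either side were Gm26298, 84.7 kb away, with 0 counts in both libraries, and Mir7088, 487 kb away, with 2 counts in replicate 2 and 7 in replicate 1. The map of the locus shows the cluster with its host transcripts and does not reach as far as these neighbours.

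**Figure D1:**
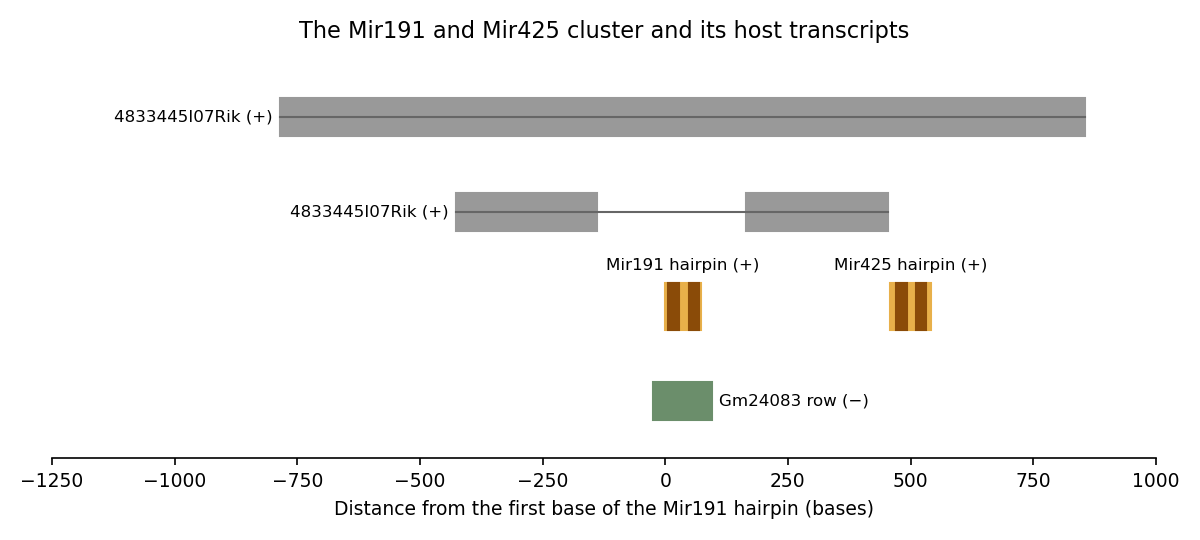
Map of the cluster, with distance in bases from the first base of the Mir191 hairpin on the x axis. Grey blocks are exons of the 2 transcripts of 4833445I07Rik, yellow blocks the hairpins with their mature arms in brown, and the green block the Gm24083 row on the minus strand. The longer transcript covers both hairpins in 1 exon, and the Gm24083 row covers all of Mir191.

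The counts at Gm24083 were on the strand of Mir191 alone. This row (ENSMUSG00000092915.1; chromosome 9, 108568295 to 108568414, minus strand) is 120 bases long and reaches past the Mir191 hairpin by 24 bases on one side and 22 on the other. Its annotated strand had 0 counts in both libraries, whereas the opposite strand had 18564 counts in replicate 2 and 28295 in replicate 1. The opposite strand was thus at least 6188-fold higher in replicate 2 and at least 9432-fold higher in replicate 1. Mir425 (ENSMUSG00000065579.1) showed the reverse layout, with all of its 12969 counts in replicate 2 and 16194 in replicate 1 on its annotated strand and 0 on the other. The 5′ and 3′ arms were not counted separately, so these values do not say which arm the reads came from.

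Gm24083 was 1 of 24 rows with more counts on the opposite strand than on the annotated one, and of 10 such rows with a mean of 100 CPM or more there. Each of these 10 rows lies opposite a miRNA gene that GENCODE M21 names and that has no row of its own. Gm24083 had 4 of the 10 above it. These were the rows opposite Mir142, at 36500 CPM in replicate 2 and 31509 in replicate 1, opposite Mir409, at 18136 and 22577 CPM, opposite Mir376a, at 15828 and 12830 CPM, and opposite Mir378a, at 6795 and 7275 CPM. Below it came those opposite Mir299a, Mirlet7e, Mir380, Mir497 and Mirlet7f-1, with means of 107 to 3725 CPM. Gm24083 held 4.07% of all opposite-strand counts in replicate 2 and 5.39% in replicate 1. In 7 of the 10 rows the opposite-strand CPM was lower in replicate 2. The median log2 ratio over all 10 was -0.12, and that of Gm24083 was the lowest of the 10. The plot of opposite-strand levels shows these rows.

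**Figure D2:**
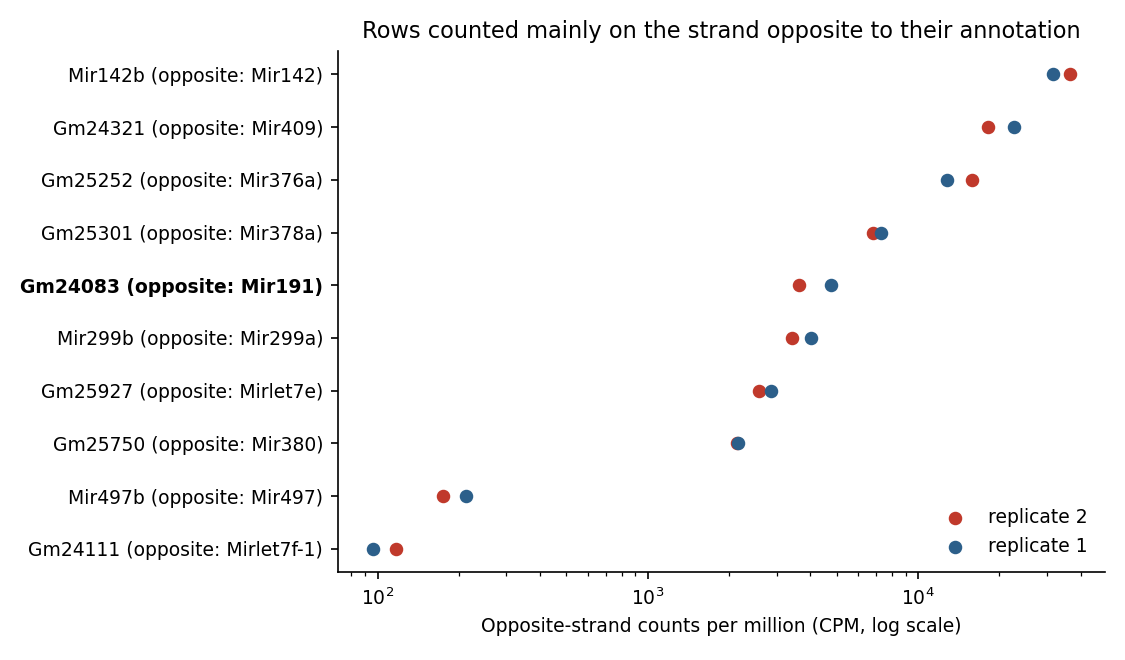
Opposite-strand CPM (log scale) of the 10 rows with a mean of 100 CPM or more on that strand and more counts there than on the annotated strand, in replicate 2 (red) and replicate 1 (blue). Gm24083, the row opposite Mir191 and in bold, is at 3638 CPM in replicate 2 and 4771 CPM in replicate 1.

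Mir191 was a moderately abundant miRNA of this liver and Mir425 a somewhat less abundant one. The strand of Mir191 was at 3638 CPM in replicate 2, with 95% Clopper-Pearson bounds of 3586 and 3691, and at 4771 CPM in replicate 1, with bounds of 4716 and 4827. Its mean was 4205 ± 801 CPM (SD, n = 2). Mir425 was at 2542 CPM in replicate 2 (2498 to 2586) and 2731 CPM in replicate 1 (2689 to 2773), with a mean of 2636 ± 134 CPM (SD, n = 2). The lower value of Mir191 lay above the higher value of Mir425, so the members did not overlap. Intervals cover counting error only and count reads as independent. Reads without molecular identifiers can be PCR copies, so the intervals may be too narrow. In whole liver, fewer cells of a type and less RNA per cell cannot be told apart.

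By mean CPM, Mir191 ranked 44 and Mir425 58 among the 1973 rows. Mir191 ranked 50 in replicate 2 and 41 in replicate 1, and Mir425 ranked 57 and 58. With every row taken at its larger strand, an alternative chosen after seeing the data, the ranks were 48 for Mir191 and 64 for Mir425. The range of Mir191 over the 2 libraries overlapped with those of 15 rows, and 38 rows lay wholly above it. That of Mir425 overlapped with those of 4 rows, and 55 lay above it. These counts take all rows but Gm24083 on their annotated strand. The strands of Mir142, Mir409, Mir376a and Mir378a also lay above both members in both libraries. The strand of Mir299a, at 3425 CPM in replicate 2 and 4026 in replicate 1, overlapped with Mir191. The strand of Mirlet7e, at 2586 and 2853 CPM, overlapped with Mir425.

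The rows nearest to Mir191 in mean level were Mir434 (4226 ± 129 CPM), of the imprinted Dlk1-Dio3 locus, and Mir30d (4077 ± 394 CPM), of the miR-30 family. Mir98 of the let-7 family (4722 ± 491 CPM), Mir18 of the Mir17 transcript (4456 ± 587 CPM), Mir10a of a Hox cluster (4069 ± 77.3 CPM) and Mir337 (4068 ± 549 CPM) were next. The ranges of all 6 overlapped with that of Mir191, so the order among them was not resolved. Around Mir425, the ranges of Mir376c (2794 ± 302 CPM), Mir423 (2987 ± 681 CPM), Mir15b (2264 ± 584 CPM) and Mir433 (2148 ± 649 CPM) overlapped with its own. Mir92-1 (3269 ± 703 CPM) lay above it and Mir341 (2270 ± 201 CPM) below it in both libraries. Rows other than Gm24083 were taken on their annotated strand. The strand of Mirlet7e (2719 ± 189 CPM), nearer to Mir425 in mean level than these rows, was thus left out. Likeness here is in level alone, over 2 libraries.

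**Figure D3:**
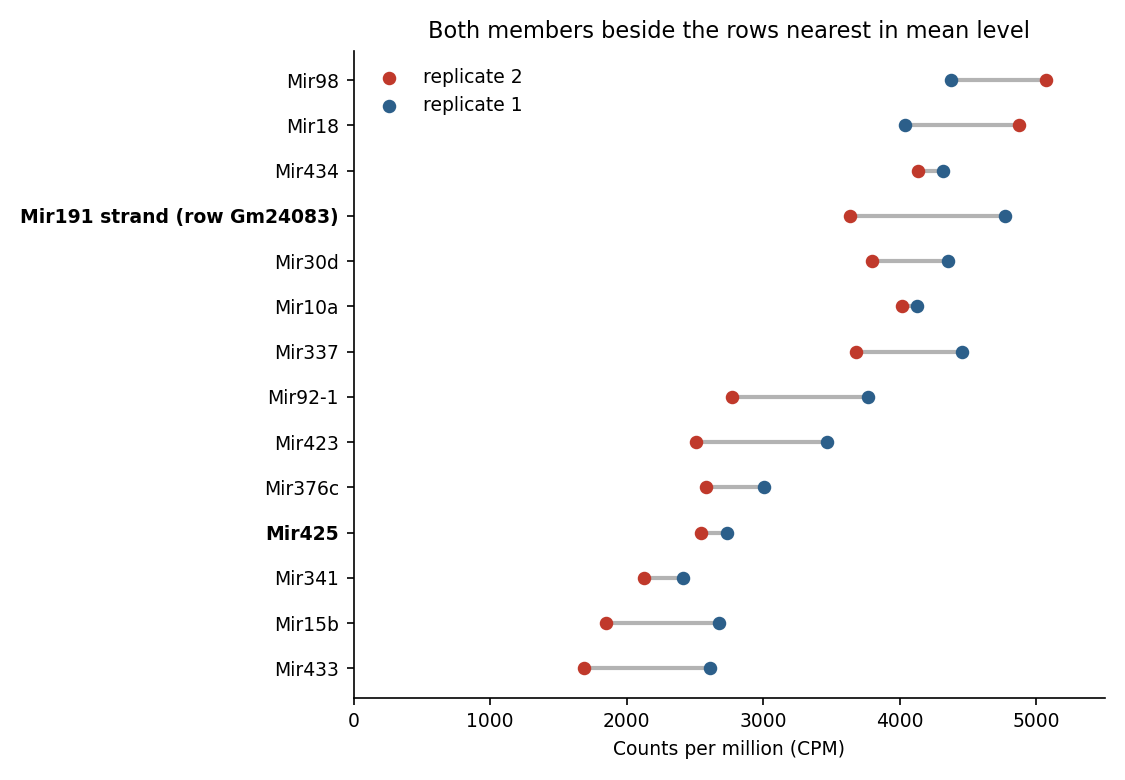
CPM of both members (bold) and of the 3 rows just above and below each in mean level, in replicate 2 (red) and replicate 1 (blue), joined by a grey line. Rows other than Gm24083 are on their annotated strand. Mir191 spans 3638 to 4771 CPM, a range that overlaps with all 6 of its neighbours, and Mir425 spans 2542 to 2731 CPM.

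The summed counts of both members equalled 0.618% of the annotated-strand total in replicate 2 and 0.750% in replicate 1. The mean was 0.684% ± 0.093 (SD, n = 2). The counts of Mir191, on the opposite strand of Gm24083, are not themselves part of that total. Mir191 exceeded Mir425 by 1.43-fold in replicate 2 (log2 0.52, counting SE 0.017) and by 1.75-fold in replicate 1 (log2 0.81, counting SE 0.014). The mean log2 ratio was 0.66 ± 0.20 (SD, n = 2). Of the reads of both members, Mir191 made up 58.9% in replicate 2, with Clopper-Pearson bounds of 58.3% and 59.4%, and 63.6% in replicate 1, with bounds of 63.2% and 64.0%. These intervals, which count reads as independent, do not overlap. The balance of the pair thus differed between the libraries by more than such counting error, by -0.29 on the log2 scale (counting SE 0.022). Differences of pool and of library preparation cannot be told apart here. Hairpins can also be captured with unequal efficiency, which the agreement of libraries made alike would not show.

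The ratio was set beside those of other adjacent hairpins, taken as pairs on 1 strand within 1000 bases with no other listed row between them on that strand and both members at a mean of 100 CPM or more. There were 37 such pairs, and some hairpins were in more than 1 pair. Apart from Mir191, miRNAs counted on the opposite strand of a row were left out of the pairs. For instance, Mirlet7e lies between Mir99b and Mir125a, and Mir409 between Mir541 and Mir412, which were taken as adjacent. Of these pairs, 6 were closer to a ratio of 1 than Mir191 and Mir425 and 30 were farther from it. When pairs with other listed rows between them were added, an alternative chosen after seeing the data, 13 of 57 pairs were closer to 1 and 43 were farther from it. The median absolute log2 ratio was 1.90 over the 37 adjacent pairs. Over the 29 of them whose hairpins share no 18-base word with another row it was 2.24, and 4 of these were closer to 1. Mir532 over Mir188 (log2 0.47 in replicate 2 and 0.69 in replicate 1) and Mir93 over Mir106b (0.53 and 0.67) were the adjacent pairs just below, and Mir181c over Mir181d (0.79 and 1.01) the one just above. Between the pools, the ratio of 10 adjacent pairs changed by more than that of Mir191 and Mir425 and that of 26 by less, against 16 and 40 with the added pairs. Over the adjacent pairs the median absolute change was 0.14 and the largest 0.80, in Mir15b over Mir16-2.

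**Figure D4:**
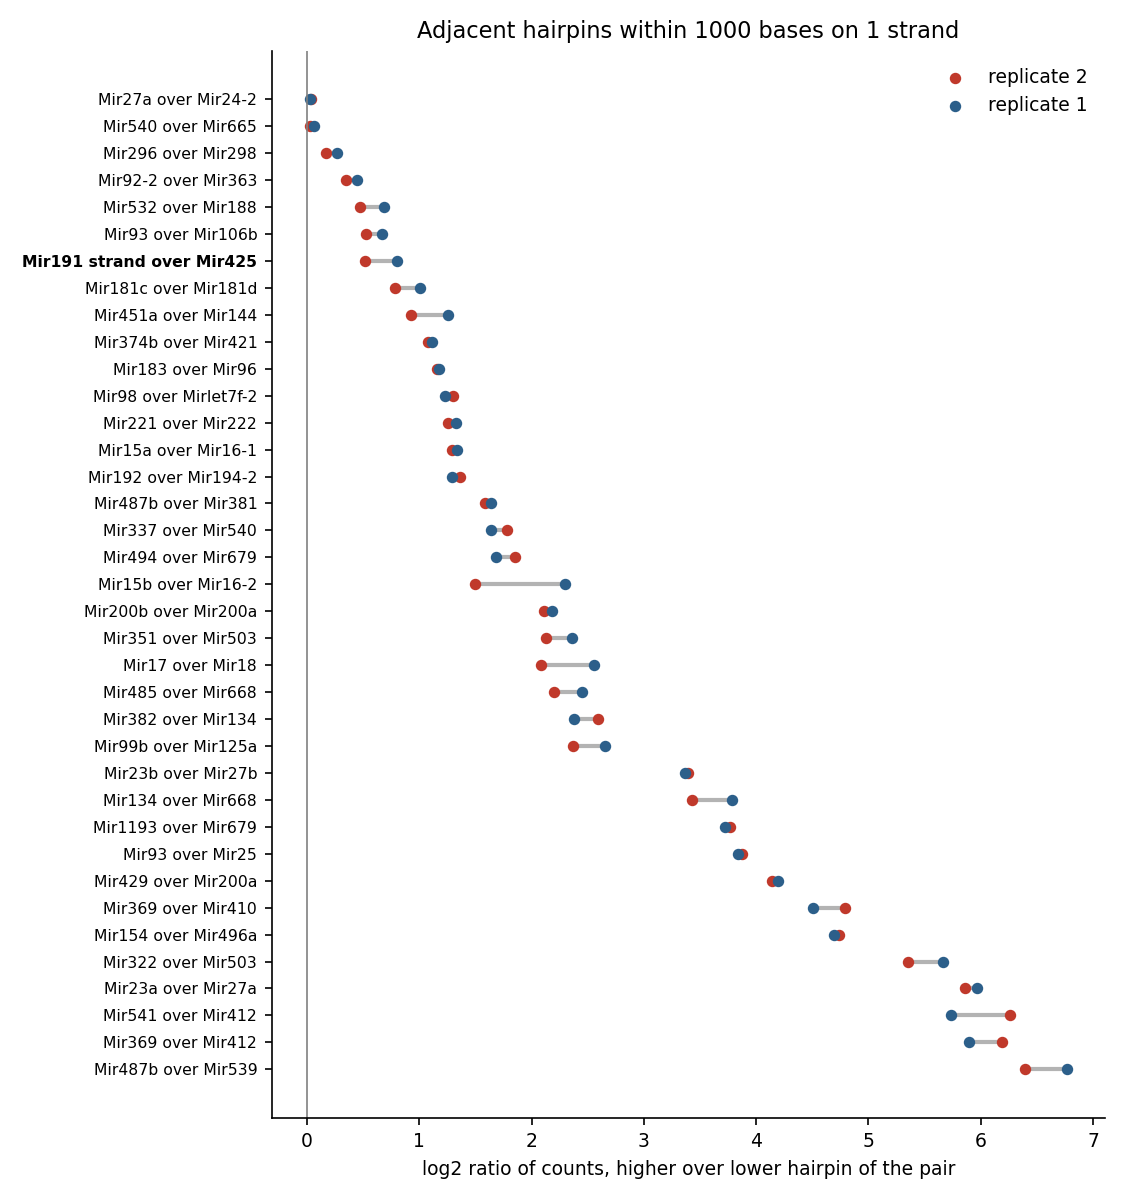
Log2 ratio of counts, higher over lower hairpin, for 37 pairs of adjacent hairpins within 1000 bases on 1 strand, with no other listed row between them on that strand, in replicate 2 (red) and replicate 1 (blue). Pairs are ordered by the mean ratio, and Mir191 over Mir425 (bold) is seventh from the top, at 0.52 in replicate 2 and 0.81 in replicate 1. Of the miRNAs counted on the opposite strand of a row, only Mir191 is included.

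Mir191 was lower in replicate 2 than in replicate 1, and Mir425 differed less. On the log2 scale the ratio of replicate 2 over replicate 1 was -0.39 for Mir191 (counting SE 0.014; CPM 1.31-fold higher in replicate 1) and -0.10 for Mir425 (counting SE 0.017; 1.07-fold). Both passed a two-sided exact conditional binomial test with Benjamini-Hochberg adjustment over 441 rows (adjusted p = 1.07e-182 for Mir191 and 4.60e-09 for Mir425), so 2 of 2 members were called lower. The test compares these 2 libraries and not conditions, and it counts reads as independent. Of all rows tested, 44.7% were called in either direction and 27.2% were called lower in replicate 2, with 17.5% called higher. Of the 83 rows with a mean of 1000 CPM or more, 92.8% were called and 57.8% were called lower, so that being called is common at the level of the members. The call of Mir425 was lost when libraries were scaled with trimmed means of M-values (log2 -0.03, adjusted p = 0.207) or DESeq2 size factors (log2 -0.03, adjusted p = 0.160), which shifted all log2 ratios up by 0.077 and 0.074. Mir191 stayed called under both scalings (log2 -0.31 and -0.32).

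Among the 184 rows with a mean of 100 CPM or more, 36 had a larger absolute log2 ratio than Mir191 and 133 a larger one than Mir425. The median log2 ratio of these rows was -0.083 and the median absolute ratio 0.20. Mir425 thus lay close to the median of comparable rows, and Mir191 below their first quartile of -0.29. Over all tested rows 120 were called lower and 77 higher in replicate 2. With either of the other scalings the split was 99 lower and 96 higher.

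Because miR-191 and miR-425 are often used for normalization, they were set beside 20 other miRNA genes used in the same way, of which 17 had a row under the listed name. The other 3 were not analysed under those names. Over all 441 tested rows, 27.2% were called lower in replicate 2 and 17.5% higher. Calls were more frequent at high levels, at 92.8% of the 83 rows with a mean of 1000 CPM or more. Of the 17, 7 were lower in replicate 2, 5 were higher and 5 did not pass the exact test. Their median log2 ratio was 0.00096 and their median absolute ratio 0.30, against 0.27 over all tested rows. The absolute ratio of Mir191 was larger than that of 15 of the 17, and that of Mir425 was larger than that of 4. The values for this list hold for scaling by library totals. Trimmed-mean scaling shifted all log2 ratios up by 0.077, to -0.31 for Mir191 and -0.027 for Mir425. The list was not recounted under that scaling. Mir484 had the largest absolute ratio of the list (log2 -0.50) and Mir186 the smallest, with 556 CPM in both libraries. The 3 most abundant were Mir26b, at 55091 CPM in replicate 2 and 50959 in replicate 1, Mir30e, at 20197 and 17460 CPM, and Mir93, at 9206 and 11487 CPM. Mir93 was lower in replicate 2 (log2 -0.32) and the other two were higher (log2 0.11 for Mir26b and 0.21 for Mir30e). Several listed genes, such as Mir103-1, Mir103-2 and Mir26a-1, share 18-base words with other rows and may be counted low.

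**Figure D5:**
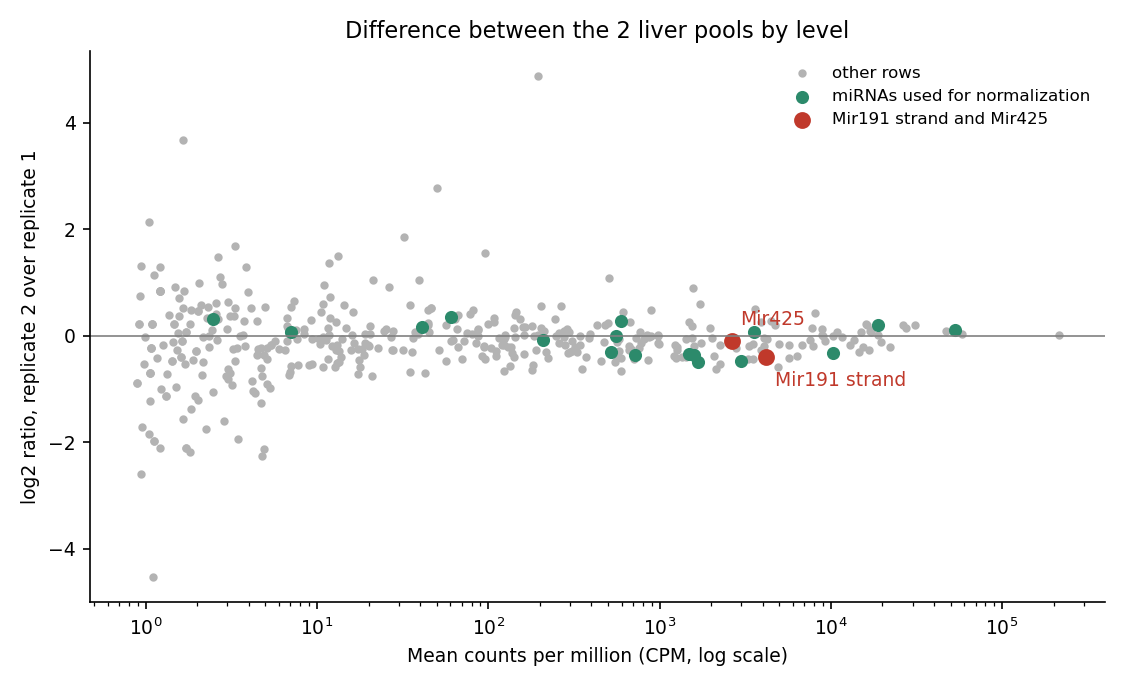
Log2 ratio of CPM, replicate 2 over replicate 1, against mean CPM (log scale) for the 441 rows with 10 or more counts. Mir191 and Mir425 are in red, at -0.39 and -0.10, 17 other miRNAs used for normalization in green and the remaining rows in grey. The green points lie between -0.50 and 0.35.

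Cell-type markers were compared between the pools because Mir191 differed between them. Mir122, the miRNA of hepatocytes, held 21.5% of the counts in replicate 2 and 21.3% in replicate 1. The 3 erythroid miRNAs summed to 27152 CPM in replicate 2 and 24071 CPM in replicate 1. Within them Mir144 (log2 0.42) and Mir451a (0.087) were higher in replicate 2 and Mir486 (-0.66) was lower. The 5 leukocyte miRNAs summed to 18736 CPM in replicate 2 and 17989 CPM in replicate 1, mostly from Mir223 (mean 17149 CPM). Of them only Mir223 passed the test (log2 0.064), against 44.7% of all tested rows. The 4 that did not pass had means of only 24.5 to 807 CPM. Their log2 ratios ran from -0.065 (Mir342) to 0.12 (Mir155). This list does not hold Mir142, a leukocyte miRNA with no row of its own, whose strand was at 36500 CPM in replicate 2 and 31509 CPM in replicate 1 (log2 0.21, counting SE 0.0047). Endothelial Mir126a was at 48545 and 45470 CPM. The 3 mesenchymal miRNAs summed to 18143 and 16068 CPM, with Mir143 (log2 0.20) and Mir145a (0.16) higher in replicate 2 and Mir214 (-0.44) lower. No marker list had a member at 0. The sums of all 5 lists were higher in replicate 2, by log2 0.0086 (hepatocyte) to 0.18 (mesenchymal). The hepatocyte and endothelial lists hold 1 miRNA each. Mir486, Mir214 and, without passing the test, Mir342 were lower in replicate 2. The part of any list in the difference of Mir191 was not tested.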

How the data were processed

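The authors deposited raw counts per gene for each of 2 small RNA libraries (size range below 30, per the labels). Assembly mm10 and annotation GENCODE M4 are named in the deposited text description. Which aligner and counter were used is not given in the sources used here. A table has 1973 rows of genes and 4 of tallies, with 3 columns for either strand, the annotated strand and the opposite strand. The annotated-strand column was told by its larger total. These totals were 5102289 in replicate 2 and 5930074 in replicate 1, where 1 count is worth 0.196 and 0.169 CPM. Reads mapping to several places (28.2% and 28.1% of reads tallied) and unmapped reads (21.2% and 21.8%) stayed out of the totals, and reads outside the listed genes made up 5.00% and 4.47%.

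Names and positions came from GENCODE M21 on the same assembly by versionless identifier (1894 rows matched), so a name can differ from M4. Gm24083 entered with opposite-strand counts and all other rows with annotated-strand counts. Rows with 10 or more counts over both libraries were tested with an exact conditional binomial test (scipy 1.17.1) at an adjusted p of 0.05, with 0.5 added to counts for log2 ratios. edgeR 4.0.16 gave the trimmed-mean scaling and DESeq2 1.42.0 the size factors, in R 4.3.3. No quasi-likelihood test was fitted, because 1 group holds no contrast.

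The members and lists were chosen with earlier results of these data known. Genes named by rule were both members, the 3 rows above and below each in level, seed sharers, rows counted mainly on the opposite strand, the nearest hairpins on the chromosome, the marker lists, and of the normalization list the 3 highest and the largest and smallest ratio. Pairs and a few further list members were named after their values were seen.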

Additional observations from a re-analysis of the deposited data

How the results depend on the processing

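Of 33 values recomputed under other settings, 28 kept their direction, their call or their level within 1 SD. Some of these could not have changed. With 2 libraries, each replicate lies within 1 SD of the mean whatever its values. Counts of either strand equal those used for both members, so their levels and the ratio between them stayed the same. Leaving Mir122 out of the total raised the mean to 5349 CPM for Mir191 and 3354 CPM for Mir425, and adding opposite-strand counts to the total lowered Mir425 to 2421 CPM; each follows from the changed total. Mir425 was no longer called between the pools under trimmed-mean scaling (log2 -0.027) or DESeq2 size factors (log2 -0.029). Over its alternatives the exact-test adjusted p of Mir425 ran from 2.69e-09 to 0.207, and that of Mir191 from 5.09e-184 to 2.68e-118. Leaving out a replicate gave 3638 to 4771 CPM for Mir191, 2542 to 2731 CPM for Mir425 and a log2 ratio of 0.52 to 0.81 between them. With all pairs within 1000 bases in place of adjacent ones, chosen after seeing the data, 13 of 57 pairs were closer to a ratio of 1, against 6 of 37. The count of called rows ran from 180 of 285 tested (100 or more counts) to 206 of 451 (counts of either strand), against 197 of 441. With 1 count or more, 196 of 709 rows were called, so the called share depended on the filter. No paired analysis was possible because both libraries belong to 1 group. The 2 libraries limit the precision of every SD.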
